A study of Mus musculus with 3 samples.

Results

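NR2F2 binding was examined at the genes that encode enzymes of histone modification, taken as the curated RefSeq genes of GRCm38 whose symbols start with Hdac, Sirt and a digit, Kdm, Kmt2, Kmt5, Setd, Ezh, Ehmt, Prmt, or Kat and a digit. These symbols picked 75 of 21000 protein-coding genes in 10 families. A gene was counted as bound when an NR2F2 peak lay within 10 kb of any of its transcription start sites (TSSs), measured from the nearer edge of the peak, and 51 of the 10069 peaks in the data met this limit for a histone modifier gene. The peaks came from ChIP-seq for NR2F2, also called COUP-TFII, on entire fetal testes, cleared of the mesonephros, from E14.5 embryos of CD-1 mice. There were 2 ChIP libraries, each from chromatin of 30 pooled testes, and 1 input library, which is sheared chromatin without antibody and which both ChIP libraries share. The labels name no allele and no treatment. Since the tissue was a whole testis and no expression was measured in these libraries, the cell type in which a site was bound cannot be told and the tissue could not be checked against marker genes.

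Histone tails carry acetyl and methyl groups that are added by writer enzymes and removed by eraser enzymes. Among the writers, Kat enzymes acetylate lysine, Kmt2, Kmt5, Setd, Ezh and Ehmt enzymes methylate lysine, and Prmt enzymes methylate arginine. Among the erasers, Hdac and Sirt enzymes remove acetyl groups, the latter with NAD as cofactor, and Kdm enzymes remove methyl groups from lysine. NR2F2 is an orphan nuclear receptor of interstitial progenitor cells in the fetal testis. Nuclear receptors of its class recognise the core site AGGTCA or its variant GGGTCA, alone or in pairs, and recruit corepressor complexes that contain histone deacetylases. A few genes picked by symbol differ from the name of the group, since Ezhip encodes an inhibitor of Polycomb methylation, Setd3 methylates actin, and several Hdac and Sirt enzymes act outside the nucleus.

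The 300 bp under 3 of the 51 peaks are printed. The peaks of Kdm2a and Prmt1 were the ones above the typical peak in the test that follows and were chosen after their values were seen, and the Setd1b peak held an extended core site. Capitals mark each AGGTCA or GGGTCA on either strand, which reads TGACCT or TGACCC where it lies on the minus strand, and in Setd1b the capitals also cover the base between a pair of core sites and the extended site AGAGGTCA. The letters are the plus strand of mm10, 5′ to 3′. The Kdm2a peak is chr19:4397542-4397841, 465 bp upstream of the gene's start and in no annotated gene. The Prmt1 peak is chr7:44985815-44986114, in an intron 306 bp downstream of the TSS, and the Setd1b peak is chr5:123150225-123150524, in an intron 8032 bp downstream of the TSS.
Kdm2a: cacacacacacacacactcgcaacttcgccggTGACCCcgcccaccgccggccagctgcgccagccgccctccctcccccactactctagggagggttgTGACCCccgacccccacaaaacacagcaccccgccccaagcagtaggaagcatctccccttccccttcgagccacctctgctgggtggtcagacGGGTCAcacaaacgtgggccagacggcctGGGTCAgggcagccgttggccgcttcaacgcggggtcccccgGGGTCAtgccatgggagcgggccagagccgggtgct
Prmt1: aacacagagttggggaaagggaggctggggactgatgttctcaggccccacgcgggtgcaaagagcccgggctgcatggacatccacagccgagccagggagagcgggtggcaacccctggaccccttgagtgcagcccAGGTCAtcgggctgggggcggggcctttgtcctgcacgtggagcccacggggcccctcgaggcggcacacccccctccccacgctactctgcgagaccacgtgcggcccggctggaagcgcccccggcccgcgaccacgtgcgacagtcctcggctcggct
Setd1b: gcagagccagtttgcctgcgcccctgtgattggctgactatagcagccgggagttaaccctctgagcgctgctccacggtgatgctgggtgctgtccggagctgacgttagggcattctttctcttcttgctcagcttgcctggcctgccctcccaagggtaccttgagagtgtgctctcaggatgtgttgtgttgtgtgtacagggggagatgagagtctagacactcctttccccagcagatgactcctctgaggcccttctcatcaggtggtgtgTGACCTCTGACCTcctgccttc
The Kdm2a peak held 5 copies of GGGTCA, beginning at bases 33, 100, 194, 223 and 265 of the sequence, the first pair on the minus strand and the others on the plus strand. No other histone modifier peak held more than 3 core sites. There were 5 or more in 1.24% of the 10064 peaks with sequence and in 0.212% of those within 1 kb of a protein-coding TSS. The Prmt1 peak held 1 AGGTCA, at base 140. The Setd1b peak held AGGTCA at bases 279 and 286, both on the minus strand with 1 base between them. This arrangement was found in 2.37% of all peaks and in 1.25% of those within 10 kb of a protein-coding TSS. It was in no other peak of a histone modifier gene.

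Of the 75 histone modifier genes, 44 (58.7%) had a peak, beside 7194 of all 21000 protein-coding genes (34.3%). The difference was 24.4 percentage points, where 1 histone modifier gene is worth 1.33 points. At the share of all protein-coding genes, 25.7 of the 75 genes would have carried a peak. A single peak was found at 37 genes, and 7 genes had 2 peaks, which are Kat6b, Kdm1a, Kdm5a, Kmt2e, Kmt5a, Setd5 and Sirt4. No gene had more than 2. Of the bound genes, 15.9% had more than 1 peak, beside 13.2% of all bound protein-coding genes. The writers, counted by family and so with Ezhip, were bound at 21 of 39 genes (53.8%) and the erasers at 23 of 36 (63.9%). The members and the protein-coding background were compared as counts only, with no test of the share.

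The share bound differed between the families, but most were small, so that 1 gene moved the share by 5.56 points in Kdm, the largest family, and by 12.5 points in Kat and Prmt. Among the acetyltransferases, 6 of 8 Kat genes (75.0%) had a peak, namely Kat2b, Kat5, Kat6a, Kat6b, Kat7 and Kat14, and Kat2a and Kat8 had none. Among the deacetylases, Hdac1, Hdac2, Hdac3, Hdac4, Hdac6, Hdac7 and Hdac11 were bound (7 of 11, 63.6%), and Hdac5, Hdac8, Hdac9 and Hdac10 were not. The sirtuins Sirt1 to Sirt5 were bound (5 of 7, 71.4%), and Sirt6 and Sirt7 were not.

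**Figure D1:**
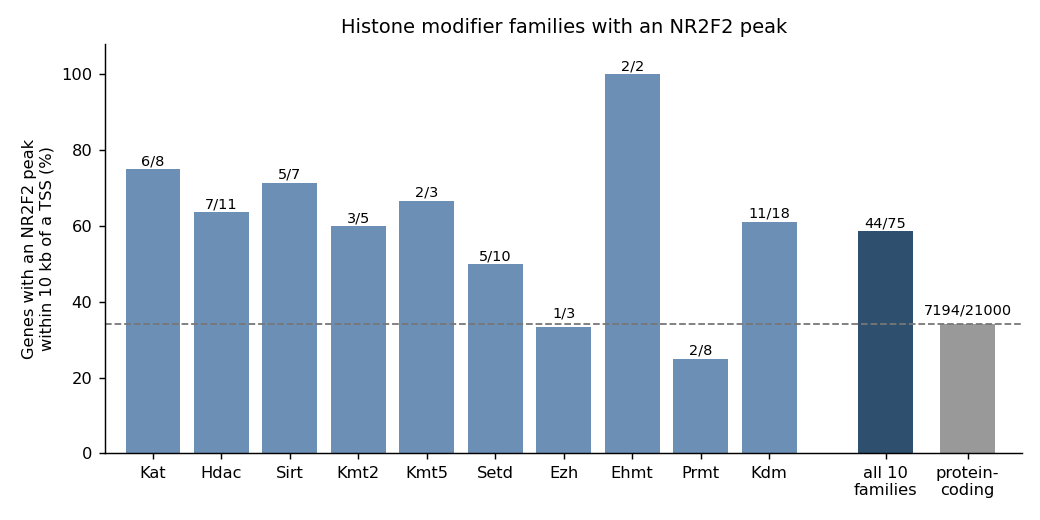
Share of the genes of each family with an NR2F2 peak within 10 kb of a TSS, in percent, with the number of genes above each bar and a dashed line at the share of all protein-coding genes. Of the 10 families, 8 sit above the line at 34.3%, while Ezh (1 of 3) and Prmt (2 of 8) sit below it.

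Of the genes in the lysine methyltransferase families, a count that includes the inhibitor gene Ezhip, 13 of 23 (56.5%) had a peak. Kmt2c, Kmt2d and Kmt2e were bound and Kmt2a and Kmt2b were not. Kmt5a and Kmt5b, which methylate histone H4, were bound and Kmt5c was not. In the Setd family 5 of 10 genes were bound, Setd1a, Setd1b, Setd2, Setd3 and Setd5, whereas Setd4, Setd6, Setd7, Setdb1 and Setdb2 were not. Ezh2, the catalytic subunit of Polycomb repressive complex 2, had a peak and Ezh1 and Ezhip had none. Both Ehmt1 and Ehmt2, partner enzymes of repressive histone H3 methylation, were bound. The arginine methyltransferases had the lowest share, with peaks at Prmt1 and Prmt6 and none at Prmt2, Prmt3, Prmt5, Prmt7, Prmt8 and Prmt9 (2 of 8). Among the demethylases, 11 of 18 (61.1%) were bound, namely Kdm1a, Kdm1b, Kdm2a, Kdm3a, Kdm3b, Kdm4b, Kdm4d, Kdm5a, Kdm6a, Kdm6b and Kdm7a. Kdm2b, Kdm4a, Kdm4c, Kdm5b, Kdm5c, Kdm5d and Kdm8 were not.

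Paralogs were thus divided in several families. Kdm2a had the peak with the most ChIP reads of the group, whereas the nearest peak to Kdm2b was 25681 bp from a TSS. Ezh2 was bound and the nearest peak to Ezh1 was 20039 bp away. For the 31 genes without a peak, the nearest one lay 10877 to 85386 bp from a TSS at 21 genes, with a median of 41328 bp, and no peak lay within 100 kb of the other 10. Of the 5 members on the X chromosome, Hdac6 and Kdm6a were bound and Hdac8, Kdm5c and Ezhip were not, beside 17.7% of 902 X-linked protein-coding genes. Kdm5d lies on the Y chromosome, for which the peak files used here hold 0 peaks, so that it is counted without a peak but cannot be judged.

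CpG content of the promoter moved with the share. It was measured as the observed to expected ratio of CpG in 500 bp to each side of a TSS, taking the richest TSS of a gene, and a ratio of at least 0.6 was found at 62 of 75 histone modifier genes (82.7%) and at 10814 of all protein-coding genes (51.5%). Among genes at or above 0.6, 39 of 62 histone modifier genes (62.9%) and 53.4% of all genes were bound, a difference of 9.50 points, where it was 24.4 over all genes. With the CpG-rich genes split at 0.8, 26 of 39 histone modifier genes (66.7%) and 58.5% of all genes were bound above it, and 13 of 23 (56.5%) and 49.0% between 0.6 and 0.8. Below 0.6, 5 of 13 histone modifier genes (38.5%), which are Hdac3, Hdac11, Kdm6b, Sirt4 and Sirt5, and 13.9% of all genes were bound, a difference of 24.5 points. In this class the median ratio was 0.542 in the histone modifier genes and 0.251 in all genes, so the groups were not alike in CpG content. The gap was thus narrower among CpG-rich promoters than over all genes, and the part of CpG content in it was not tested further.

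**Figure D2:**
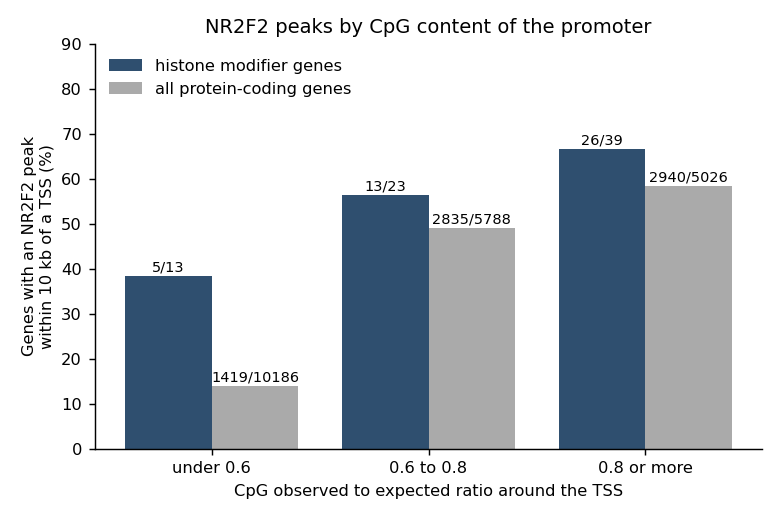
Share of genes with an NR2F2 peak within 10 kb of a TSS, in percent, by the CpG observed to expected ratio around the TSS, for histone modifier genes and all protein-coding genes, with the number of genes above each bar. The bars of the groups stand 66.7% and 58.5% high at a ratio of 0.8 or more and 38.5% and 13.9% below 0.6. Below 0.6 the median ratio was 0.542 in histone modifier genes and 0.251 in all genes.

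All 8 Prmt genes had a ratio of at least 0.6, with a median of 0.787, beside a median of 0.805 over the histone modifier genes. Prmt had the lowest share bound among the families of more than 3 genes, and the part of CpG content in this was not tested. All 10 Setd genes were also at or above 0.6, and 5 were bound. In the Kat family the 6 genes at or above 0.6 were the 6 bound genes. Kdm6b was the bound gene with the lowest ratio, 0.327, and Hdac9, which was not bound, had the lowest of the group at 0.177.

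A protein-coding TSS on the opposite strand within 1 kb upstream was found at 9 members, of which Hdac3, Kdm1b, Kdm4d, Setd3, Sirt2 and Sirt3 were bound and Prmt7, Setdb2 and Sirt6 were not. Over all protein-coding genes, 61.4% of such divergent genes and 31.6% of the others were bound, beside 6 of 9 and 38 of 66 (57.6%) of the histone modifier genes. Genes with 1 annotated TSS were bound at 31 of 56 members (55.4%) and 32.0% of all genes, and genes with 2 or more TSSs at 13 of 19 members (68.4%) and 44.8% of all genes.

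In the libraries, the peaks held 73251 reads of input, 426784 of ChIP replicate 1 and 364261 of ChIP replicate 2, and the depth of each library beyond the peaks is unknown. Counts at the 51 peaks of histone modifier genes ran from 2 to 19 in input, from 16 to 157 in replicate 1 and from 14 to 163 in replicate 2, and both ChIP counts were above input at each of them. The peaks had been called on the ChIP reads, so that this is how they were chosen and not a result. Intervals on such counts cover counting error only. The Kdm2a peak, at the gene of a demethylase that binds unmethylated CpG, ranked the highest, with 5 reads in input, 157 in replicate 1 and 163 in replicate 2. It was the peak with rank 34 of all 10069 by summed ChIP count. The Prmt1 peak, at the gene of the main enzyme of asymmetric arginine methylation, followed with 5, 100 and 104 reads in the same order and rank 191.

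Below these, the counts lay closer together. Kat7, an acetyltransferase of histones H3 and H4, had a peak over its TSS and 5′ UTR (chr11:95310081-95310380) with 7, 83 and 92 reads in input, replicate 1 and replicate 2. Hdac7, a class IIa deacetylase, had an intronic peak 4087 bp downstream of a TSS (chr15:97840116-97840415) with 11, 105 and 66 reads. Kdm6b, which removes the Polycomb methyl mark, had an intergenic peak 1689 bp upstream of a TSS (chr11:69417883-69418182) with 7, 91 and 80 reads. In Hdac7 the replicates stood further apart than in the other 4 of the 5 peaks with the most reads, and replicate 1 was the higher.

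Kmt2d, a trithorax-type methyltransferase, had 9, 68 and 65 reads at a peak 884 bp upstream of its TSS. Prmt6 had 19, 57 and 74 reads at a coding exon peak 346 bp downstream of the TSS, and 19 was the highest input count of the group. The peak linked to Ehmt2 had 12, 73 and 56 reads but lay 3016 bp upstream of its TSS, in a coding exon of Zbtb12. Prmt6 thus had more input reads than Prmt1 and fewer ChIP reads in both replicates. Kdm1b had 7, 73 and 54 reads over its TSS. Hdac3, a deacetylase of nuclear receptor corepressor complexes, had 19, 59 and 66 reads at a peak 281 bp upstream of its TSS that also covered the TSS of the divergent gene Rell2. Sirt5, a mitochondrial deacylase, had 12, 58 and 59 reads at an intronic peak 54 bp downstream of its TSS.

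The other families had their strongest peaks at lower counts. At Setd2, which trimethylates histone H3 along transcribed genes, the peak 229 bp upstream of the TSS held 7, 59 and 48 reads. The Kmt5b peak, in its 5′ UTR and 11 bp downstream of the TSS, held 6, 45 and 52 reads. At Ezh2 the one peak held 9, 34 and 25 reads and covered a TSS of the non-coding gene F830010H11Rik, 42 bp upstream of the TSS of Ezh2. The lowest mean ChIP count was at Sirt1, a nuclear deacetylase, with 5, 16 and 17 reads.

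**Figure D3:**
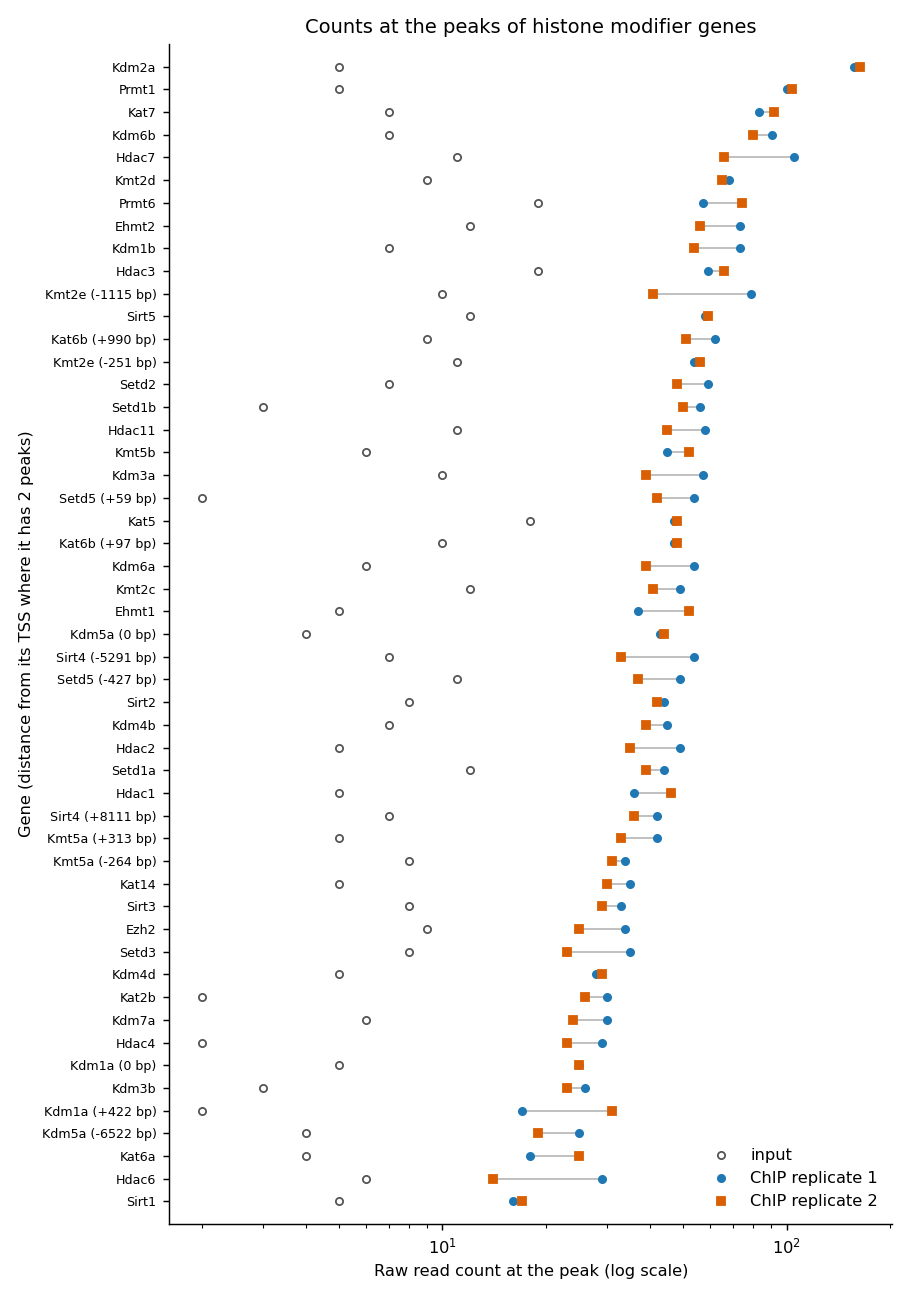
Raw read counts in input, ChIP replicate 1 and ChIP replicate 2 at the 51 peaks of histone modifier genes, on a log axis, ordered by mean ChIP count, with a grey line between the replicates. The ChIP counts of Kdm2a (157 and 163) stand apart from the next highest, and input lies at or below 19 at every peak.

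The 7 genes with 2 peaks tied for the most peaks, and in all but Sirt4 at least 1 of the peaks was within 1 kb of the TSS. Kmt2e had 10, 79 and 41 reads at 1115 bp upstream of its TSS and 11, 54 and 56 reads at 251 bp upstream. Both peaks lay in exons of the non-coding gene 5031425E22Rik. Kat6b had 9, 62 and 51 reads at 990 bp downstream and 10, 47 and 48 reads at 97 bp downstream, both in introns. Setd5 had 2, 54 and 42 reads at 59 bp downstream and 11, 49 and 37 reads at 427 bp upstream, inside the non-coding gene Gt(ROSA)26Sor. The ChIP counts of the pair at Setd5 were thus close together while the input counts differed.

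Kdm5a had 4, 43 and 44 reads over its TSS and 4, 25 and 19 reads at 6522 bp upstream, at a TSS of Ccdc77. The pair at Sirt4, with 7, 54 and 33 reads at 5291 bp upstream and 7, 42 and 36 reads at 8111 bp downstream, was the only one with both peaks over 5 kb from the TSS. Kmt5a had 5, 42 and 33 reads at 313 bp downstream and 8, 34 and 31 reads at 264 bp upstream. Kdm1a, the demethylase of the CoREST complex, had 5, 25 and 25 reads over its TSS and 2, 17 and 31 reads at 422 bp downstream. All 4 counts of Kdm1a in the ChIP libraries were below the medians of the group.

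As a group, the median peak had 47 reads in replicate 1 and 41 in replicate 2, beside 40 and 33 for the 6478 peaks near protein-coding genes and 37 and 31 for all peaks. The median input was 7 reads in each of the 3 sets. The median ratio of ChIP to input, with 0.5 added to each raw count, was 5.67 ± 0.566 (SD, n = 2 ChIP libraries that share 1 input) at the histone modifier peaks, 5.00 ± 0.653 at the peaks near protein-coding genes and 4.75 ± 0.505 at all peaks. In replicate 1 the medians were 6.07, 5.46 and 5.11, and in replicate 2 they were 5.27, 4.54 and 4.39. The difference between the first and second set had the same direction in both replicates, which share 1 input and the same peaks. These ratios were not scaled for depth, and replicate 1 had more reads at peaks than replicate 2 (426784 and 364261). The SD therefore includes that difference in reads and does not measure the spread of a difference between sets. Of the 51 peaks, 35 (68.6%) were above the median summed ChIP count of all peaks, beside 54.9% of those near protein-coding genes. Above the 90th percentile of all peaks were 7 of them (13.7%), beside 11.5%.

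Whether the ChIP to input ratio of a peak was above or below that of the typical peak was tested with edgeR over all 10069 peaks, with p-values adjusted over all of them. In this fit 2 of 51 histone modifier peaks passed above the typical peak, beside 1.53% of all peaks, and 0 passed below, beside 0.0497%. At an unadjusted p under 0.05 there were 6 above (11.8%) and 1 below (1.96%), beside 7.89% and 2.55% of all peaks. DESeq2, which gave no adjusted p for 44 of the 51, called Kdm2a above and 0 below, and its share over all peaks is not given here. The peak of Kdm2a was 2.68 ± 0.46 (SE) above the typical peak on the log2 scale (edgeR adjusted p = 3.87e-06), and that of Prmt1 was 2.03 ± 0.52 above it (edgeR adjusted p = 0.0120). The Prmt1 peak did not pass in edgeR with DESeq2 size factors in place of TMM (adjusted p = 0.180) or in DESeq2 (adjusted p = 0.170), and the adjusted p of Kdm2a was 0.0331 and 0.0405 there. With 0.5 added to each count, the ratios of Kdm2a were 28.6 and 29.7 in the replicates and those of Prmt1 were 18.3 and 19.0. Both rest on 5 input reads, and the exact 95% interval of the mean ChIP count over the input count, without an added number, was 13.6 to 99.2 at Kdm2a and 8.60 to 63.5 at Prmt1.

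The other 4 peaks with an unadjusted p under 0.05 above the typical peak did not pass. They were Setd5 at 59 bp downstream (log2 difference 2.25 ± 0.81, edgeR adjusted p = 0.163), Setd1b (1.81 ± 0.71, 0.242), Kat7 (1.33 ± 0.50, 0.199) and Kdm6b (1.29 ± 0.50, 0.235). Input counts at them were 2, 3, 7 and 7. The Setd1b peak had 56 and 50 reads in the ChIP replicates, and its ratio to input had an interval of 5.88 to 87.0. The peak with the lowest log2 difference was that linked to Kat5, the catalytic subunit of the Tip60 complex, at -0.91 ± 0.43 (edgeR adjusted p = 0.410), with 18, 47 and 48 reads. It lay 7485 bp downstream of the TSS of Kat5 and 87 bp from that of Rnaseh2c. Over the group the median log2 difference was 0.26 and 34 of 51 (66.7%) were above 0, beside a median of 0.09 and 55.6% for the peaks near protein-coding genes and 0.02 and 51.2% for all peaks.

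**Figure D4:**
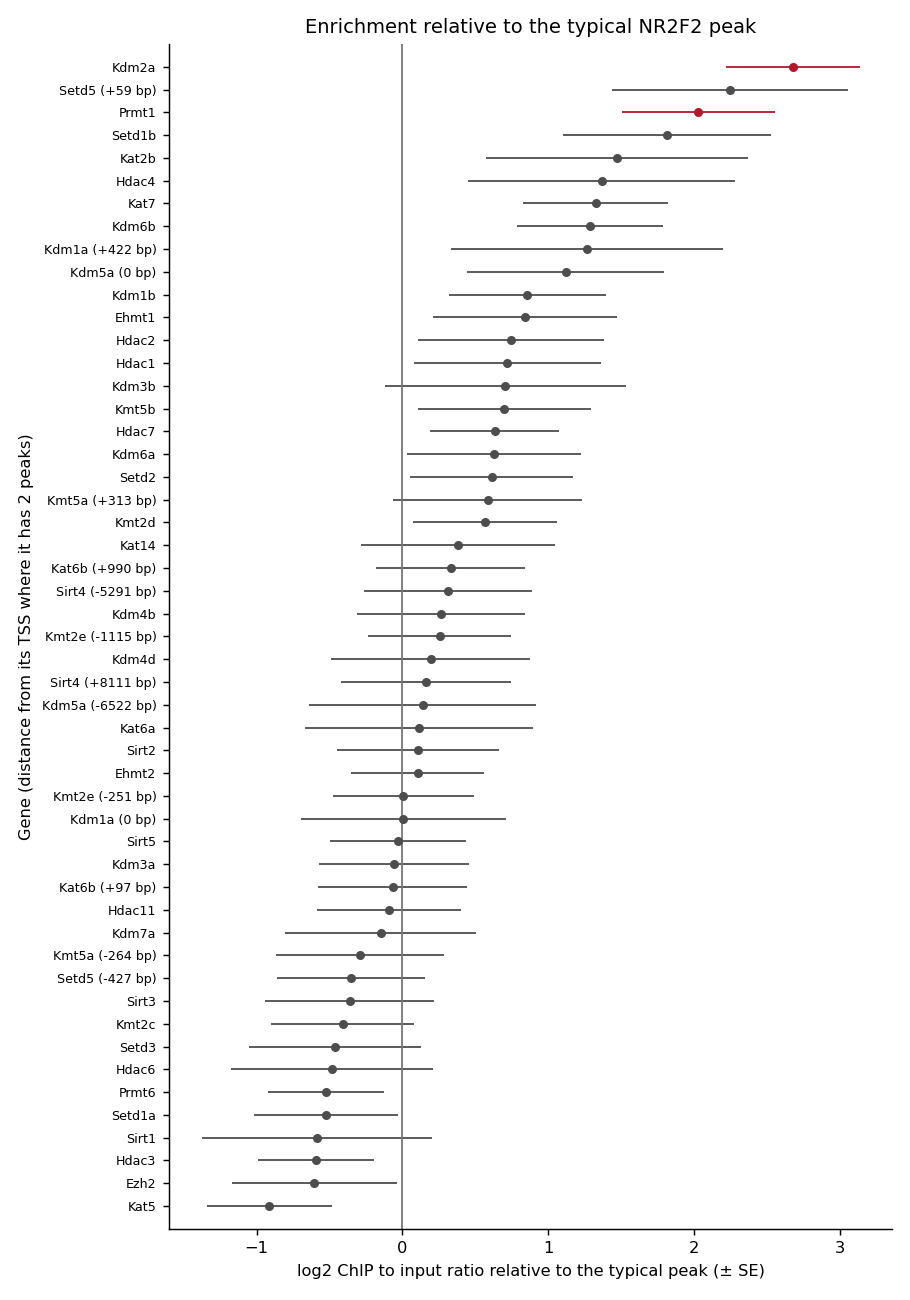
The log2 ChIP to input ratio of each of the 51 peaks relative to the typical peak, with its SE from the edgeR fit, where red points passed an adjusted p of 0.05. Kdm2a (2.68) and Prmt1 (2.03) are red, while Setd5 (2.25) has a wider error bar and did not pass.

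Between families these values overlapped. In Kdm, 11 of 13 peaks had a log2 difference above 0, of which 1 passed the test, with a median log2 difference of 0.63 and a range of -0.15 to 2.68. The 7 Hdac peaks had the same median, 0.63, from -0.59 to 1.37, with 4 above 0. Kat peaks had a median of 0.33 (-0.91 to 1.47), Setd peaks 0.13 (-0.53 to 2.25) and Sirt peaks 0.04 (-0.59 to 0.31). The Sirt range was the narrowest among the families with more than 4 peaks. Erasers (26 peaks, median 0.23) and writers (25 peaks, median 0.26) had similar medians, and these differences were not tested.

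The ChIP replicates were compared at each peak with an exact binomial test against their totals at peaks. None of the 51 peaks differed at an adjusted p of 0.05, beside 0.0993% of all peaks. At an unadjusted p under 0.05 there were 4 of 51 (7.84%), beside 8.83% of all peaks. They were Kmt2e at 1115 bp upstream (79 and 41 reads in replicates 1 and 2), Kdm1a at 422 bp downstream (17 and 31), Prmt6 (57 and 74) and Ehmt1 (37 and 52). Across the 51 peaks, which are not independent replicates and share libraries, Spearman's rho between the replicates was 0.863, beside 0.818 across all peaks.

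Most peaks lay at promoters. Of the 51, 41 (80.4%) overlapped a TSS of the gene or lay within 1 kb of it, beside 76.5% of the 8206 pairs of a peak and a protein-coding gene. A peak overlapped the TSS itself in 9 of 51 (17.6%), beside 29.3%. Peaks up to 1 kb upstream made up 19 of 51 (37.3%), beside 1644 of the 8206 pairs, and peaks up to 1 kb downstream 13 (25.5%), beside 27.2%. The 9 on the TSS were at Hdac6, Hdac11, Kat7, Kdm1a, Kdm1b, Kdm4b, Kdm5a, Kdm6a and Sirt3. The remaining 10 pairs (19.6%) spanned 1 to 10 kb, with 6 upstream and 4 downstream. The median distance was 264 bp, beside 143 bp for all pairs.

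**Figure D5:**
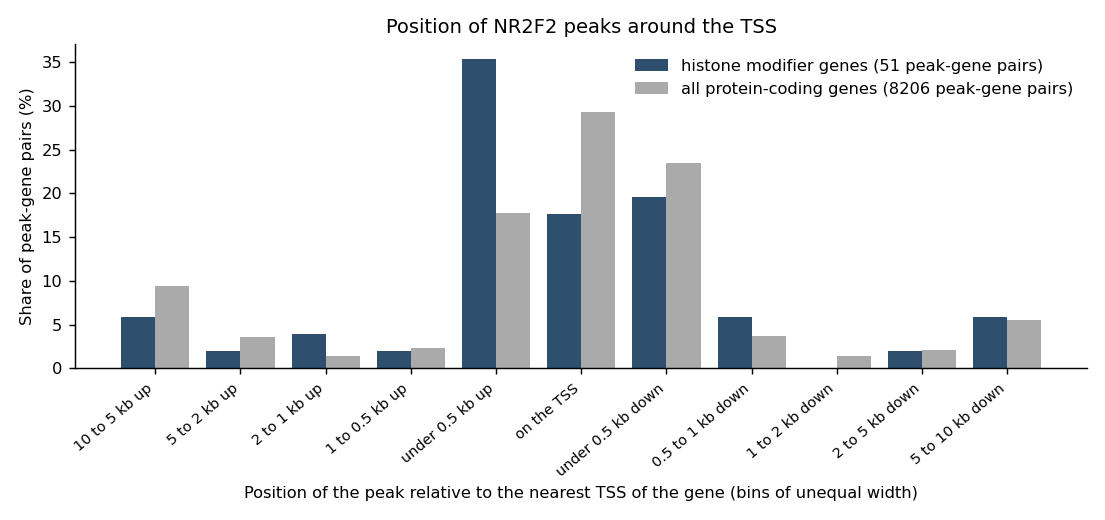
Share of peak and gene pairs by the position of the peak relative to the nearest TSS of the gene, in percent, for histone modifier genes (51 pairs) and all protein-coding genes (8206 pairs), in bins of unequal width. The largest bar of histone modifier genes, 35.3%, is less than 0.5 kb upstream, and that of all genes, 29.3%, is on the TSS.

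By the midpoint of the peak, 20 of 51 (39.2%) were outside any gene, 18 (35.3%) in an intron, 7 (13.7%) in a 5′ UTR, 3 (5.88%) in a coding exon and 3 in an exon of a non-coding gene. For the peaks near protein-coding genes the shares were 29.9% outside any gene, 30.3% in an intron, 22.5% in a 5′ UTR, 14.6% in a coding exon and 2.42% in a non-coding exon. Not every peak belongs to the histone modifier gene alone. The nearest TSS was that of the histone modifier gene at 38 peaks and that of another gene at 13, of which 8 were within 1 kb of the histone modifier TSS and 5 were farther. The 5 were those of Ehmt2 (Zbtb12), Kat5 (Rnaseh2c), Setd1a (Orai3), Kdm5a at 6522 bp upstream (Ccdc77) and Kmt2e at 1115 bp upstream (5031425E22Rik), with the nearest gene in parentheses. At 10 genes every peak was nearer to another gene, and with the nearest gene alone 34 of 75 (45.3%) were bound, beside 27.9% of all protein-coding genes.

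The limit of 10 kb cut few peaks closely. The farthest inside it were the Sirt4 peak at 8111 bp, the Setd1b peak at 8032 bp and the Kat5 peak at 7485 bp. Just outside were peaks 10877 bp from Hdac5 (8, 62 and 66 reads), 11663 bp from Prmt1 (9, 56 and 57) and 12841 bp from Hdac1 (4, 37 and 28), and only Hdac5 had no other peak inside.

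The extended core site AGAGGTCA or AGGGGTCA, searched on both strands, was found in the peaks of Hdac3 and Setd1b, 2 of 51 (3.92%), beside 7.19% of the peaks near protein-coding genes, 6.07% of those within 1 kb of such a TSS and 10.5% of the 10064 peaks with sequence. The 95% Wilson interval of the 2 of 51 was 1.08% to 13.2%. The core site AGGTCA or GGGTCA, which every extended match contains, was in 23 of 51 (45.1%), beside 50.4%, 47.8% and 58.9% of the same sets. After the 5 copies at Kdm2a, there were 3 at Kdm6a, at Setd5 59 bp downstream of the TSS, and at Kmt5a 313 bp downstream. The 23 peaks with a core site had a median of 46.5 ChIP reads, averaged over the replicates, and the 28 without one of 43.0, beside 36.5 and 31.5 over all peaks with and without it. Their median input counts were 6 and 8, and their median log2 differences from the typical peak 0.72 and 0.06, beside 0.06 and -0.04 over all peaks. A match is a description of the sequence, and such letters can occur by base composition.

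Other promoter motifs were searched on both strands in the same peaks. The SP motif GGGGCGGGG was in 9 of 51 (17.6%), at Kdm2a, Prmt1, Kdm1b, Kat6b at 990 bp downstream, Setd2, Hdac11, Kdm3a, Kdm4b and Sirt3, beside 9.32% of the peaks near protein-coding genes, 10.2% of those within 1 kb of a TSS and 6.68% of all peaks. The Wilson interval of the 9 of 51 was 9.57% to 30.3%. The ETS motif CCGGAAGT was at Kat7 and at Kmt5a 264 bp upstream (3.92%, beside 6.02% of the peaks near protein-coding genes). The YY1 motif AAGATGGCG was at Kmt2e 1115 bp upstream (beside 2.79%), and the NRF1 motif GCGCATGCG at Sirt5 (beside 1.74%). The CRE motif TGACGTCA was in none, beside 2.13%.

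Histone modifier genes whose symbols fall outside the 10 families, and the partner subunits of modifier complexes, were counted in the same way. Of 32 other histone modifiers, 20 (62.5%) were bound, with 25 peaks, beside 34.3% of all protein-coding genes. Dot1l, Crebbp, Nsd1 and Nsd3 were among the bound and Ep300, Ash1l, Nsd2 and Carm1 among the others. Of these 25 peaks, 1 passed above the typical peak, beside 1.53% of all peaks, and it lay over the TSS of Smyd5, with 10, 146 and 133 reads and a log2 difference of 1.48 (edgeR adjusted p = 0.0171). Of 47 partner subunits, 35 (74.5%) were bound, beside the same 34.3%. They had 46 peaks, of which 0 passed in edgeR and 2 (4.35%) had an unadjusted p under 0.05, beside 10.4% of all peaks. The highest of these was at Wdr77, a partner of Prmt5, with 9, 129 and 103 reads (log2 difference 1.37, edgeR adjusted p = 0.0735). Prmt5 itself had no peak within 10 kb, and its nearest peak was 36416 bp away. Ezh2 and its partners Eed and Suz12 in Polycomb repressive complex 2 were all bound, as were the deacetylase Hdac3 and its corepressor Ncor1, which had 3 peaks. Of these 47 genes, 45 had a CpG ratio of at least 0.6, and 33 of those were bound (73.3%), beside 62.9% of the histone modifier genes and 53.4% of all genes in that class.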

How the data were processed

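NR2F2 ChIP-seq and input reads from E14.5 testes were processed by the authors. Reads were trimmed with Trim Galore 0.6.7, mapped to mm10 with Bowtie 2 in local mode, filtered at a MAPQ of 5 and freed of duplicates with Picard 1.110. The ChIP replicates were merged before peaks were called with HOMER 4.11.1 at an FDR of 1e-05, resized to 300 bp and freed of blacklisted regions. The deposited values are raw read counts at each peak in each library, and how reads were assigned to peaks was not given in the sources used here.

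From these counts, TSSs were taken from 45756 curated RefSeq transcripts (NM and NR) of 26180 genes of GRCm38.p6, the assembly of mm10, and sequences were read from the same assembly with pysam 0.24.0. Each peak was set against the typical peak with the quasi-likelihood test of edgeR 4.0.16 (R 4.3.3) on the counts of the 3 libraries with TMM scaling, which needs no library depth, and p-values were adjusted by the Benjamini-Hochberg method over all 10069 peaks. The fit shared 1 variance among peaks, with a biological coefficient of variation of 9.94%. No filter on low counts was used. The ChIP libraries were compared by a two-sided exact binomial test per peak with scipy 1.17.1, and the p-value there compares the 2 libraries. The labels call the ChIP libraries replicates and the study describes them as independent experiments, and the edgeR p-values rest on the spread between these ChIP libraries alone, assume that the lone input library varies like them, and hold no measured variation of input. The counts summed to 73251, 426784 and 364261 reads at peaks for input and ChIP replicates 1 and 2, and the low input counts limit each ratio. The fit was tested on simulated counts with known changes. Alternatives were the distance, the choice of TSS, the link to the nearest gene, stronger peaks, CpG-rich genes, other scalings, DESeq2 1.42.0, filters on input and each ChIP library alone.

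Every gene of the rule is named as bound or not. Counts in every library are given for the 12 peaks with the most ChIP reads, the strongest peak of each family, peaks that passed a test, peaks with an extended core site, the genes with the most peaks (7 tied) and the peaks nearest to the limit, and for further peaks chosen after their values were seen. The genes, lists and motifs were chosen with earlier results of these data known, and the split at a CpG ratio of 0.8, the number of core sites per peak and the set without Ezhip and Kdm5d were added after seeing the data.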

Additional observations from a re-analysis of the deposited data

How the results depend on the processing

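The share of histone modifier genes bound was 80.0% with peaks up to 50 kb, 45.3% with the nearest gene alone and 41.3% with peaks at or above the median summed ChIP count. It was between 49.3% and 62.9% within 1, 5 and 20 kb, from the most upstream TSS, among CpG-rich genes, among genes with 1 TSS and without Ezhip and Kdm5d (60.3%). For all protein-coding genes it was 28.1%, 30.7%, 40.9% and 56.1% within 1, 5, 20 and 50 kb, 33.5% from the most upstream TSS, 27.9% for the nearest gene, 21.2% for the stronger peaks, 53.4% for CpG-rich genes and 32.0% for genes with 1 TSS. Over the settings with a share for both groups, the difference ran from 9.50 points, among CpG-rich genes, to 25.1 points. This range leaves out the set without Ezhip and Kdm5d. By CpG class the difference was 24.5 points below 0.6, 7.54 between 0.6 and 0.8 and 8.17 at 0.8 or more. Below 0.6 the groups were not alike in CpG content.

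The median ratio fell to 3.79 with 5 added to each count and was 5.27 to 6.07 without either ChIP replicate. The number of peaks above the typical peak was 1 with DESeq2 size factors in edgeR, 1 with DESeq2, which gave no adjusted p for 44 of the 51, and 0 among the 14 peaks with at least 10 input reads, where neither Kdm2a nor Prmt1 could be tested because each had 5. The shares of all peaks that passed in these other fits are not given here. Within 50 kb, 3 of 110 peaks passed above and 1 below, beside 1.53% and 0.0497% of all peaks in the main fit. Without TMM factors the median log2 value of all peaks was -0.10 in place of 0.02, and that of the histone modifier peaks 0.14, still 0.24 above it, with 30 of 51 above 0. Kdm2a passed wherever it was tested, with adjusted p from 5.40e-07 to 0.0405, whereas Prmt1 did not pass with DESeq2 size factors (log2 2.01, adjusted p = 0.180) or DESeq2 (2.02, 0.170). With 1 ChIP library the log2 difference was 2.41 or 2.70 at Kdm2a and 1.76 or 2.05 at Prmt1, as values with no test since no residual degrees of freedom remain. The share of peaks at a TSS was 54.9% without the downstream side and 90.2% for the nearest TSS of any gene, and 45.1% held the core site in place of the extended one. The cause of these changes was not tested beyond what each setting does.

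No paired analysis was possible because the input library carries no replicate number and both ChIP libraries share it. With 1 input library, the variation of input between samples is unknown, and its median of 7 reads at a peak leaves wide counting intervals on single ratios, as at Kdm2a (13.6 to 99.2).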
